A study of Mus musculus with 6 samples.

Results

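Fibroblast growth factor (FGF) ligands were followed through limb cell culture. The 6 genes described here, *Fgf2*, *Fgf7*, *Fgf8*, *Fgf9*, *Fgf10* and *Fgf18*, were chosen by symbol, and each has 1 row among the 32286 genes of the count matrices, which hold 22 genes named *Fgf1* to *Fgf23* in all. The cultures, called digits in a dish (DID), were started from distal forelimb mesenchyme that had been micro-dissected from wild type CD-1 mouse embryos at E11.5, pooled over embryos, dissociated and seeded at high density. Day 2, Day 7 and Day 10 cultures were profiled by single-cell RNA-seq (scRNAseq) with a 3′ kit of 10x Genomics, with 2 independent cultures per day (replicates A and B) and no other treatment. All groups share the strain, the stage, the dissection and a medium with serum, which carries growth factors of its own, so the days differ in time in culture and there is no limb without culture beside them.

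FGFs are secreted signals that bind tyrosine kinase receptors with the help of heparan sulfate, and raise transcripts of Sprouty, dual specificity phosphatase and ETS family genes in the cells that receive them. In the limb bud, *Fgf10* from the mesenchyme and *Fgf8* from the apical ectodermal ridge, the thickened epithelium at the bud's edge, keep each other on, and the ridge also makes *Fgf9*, *Fgf4* and *Fgf17*. *Fgf7* is the closest relative of *Fgf10*, and both bind the receptor isoform of epithelia. *Fgf18*, a relative of *Fgf8*, is made around cartilage and bone and acts on chondrocytes and osteoblasts, *Fgf9* is also known from muscle, and *Fgf2*, which lacks a classical secretion signal, is widely made by mesenchymal cells in culture.

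The deposited matrices came from 11518 to 20188 barcodes per library, of which 9448 to 16485 passed the study's limits. These cells held 178021111 to 260245417 UMIs per library, a UMI being 1 tagged RNA molecule. Depth per cell was uneven. The median cell held 18587 UMIs in Day 2 replicate A, 3871 in Day 2 replicate B, 8067 and 9337 in the Day 7 replicates, and 24197 and 22128 in the Day 10 replicates, and 41.4% of the cells of Day 2 replicate B lay under 3000 UMIs. Of the cell barcodes kept, 24 to 67 were shared by each pair of libraries, at most 0.543% of either. Markers of interdigital mesenchyme and of limb ectoderm were counted as a description. For a marker to be seen, 1 UMI in a library was enough, and all markers of macrophages and glia were seen at Day 2 too. All 8 markers of interdigital mesenchyme and all 10 of limb ectoderm were seen in each library, which does not tell the tissue. The first summed to 301 and 294 UMIs per 1000000 UMIs of the library (CPM) at Day 2, 118 and 108 at Day 7, then 130 and 131 at Day 10. The second summed to 110 and 76.8 CPM at Day 2, 44.0 and 40.1 at Day 7, then 35.6 and 44.4 at Day 10, most of it *Krt18* (84.3 and 58.0 CPM of library total at Day 2), which was also a leading gene of a contractile mesenchyme-like cluster. Doublets were not removed.

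Changes between days were tested on UMIs summed per library, with edgeR's quasi-likelihood test and Benjamini-Hochberg adjustment over all 18990 genes tested, and a gene was called at an adjusted p under 0.05. All 6 ligands passed the filter on low counts, *Fgf8* through its Day 2 libraries. In such sums, fewer cells of a type and less RNA per cell cannot be told apart. Levels are given as CPM with the library total scaled by its TMM factor unless library total is named, and they are not compared between genes.

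Most genes of these cultures changed between days, the ligands among them. *Fgf8* passed the filter only through the day at which it is high and is left out of these counts. Of the other 5, 2 rose and 3 fell between Day 2 and Day 7, against 70.3% of all genes called, 35.7% higher and 34.6% lower. Between Day 7 and Day 10, 3 rose and 2 were not called, against 52.2% of all genes called, 26.3% higher and 25.9% lower. Between Day 2 and Day 10, 2 rose, 2 fell and 1 was not called, against 77.3% of all genes called, 39% higher and 38.2% lower. The median log2 fold change of the 5 was -0.48, 0.37 and -0.065 in these comparisons, beside 0.014, -0.016 and 0.0010 over all genes tested. The 3 comparisons share libraries and are not independent of each other.

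**Figure D1:**
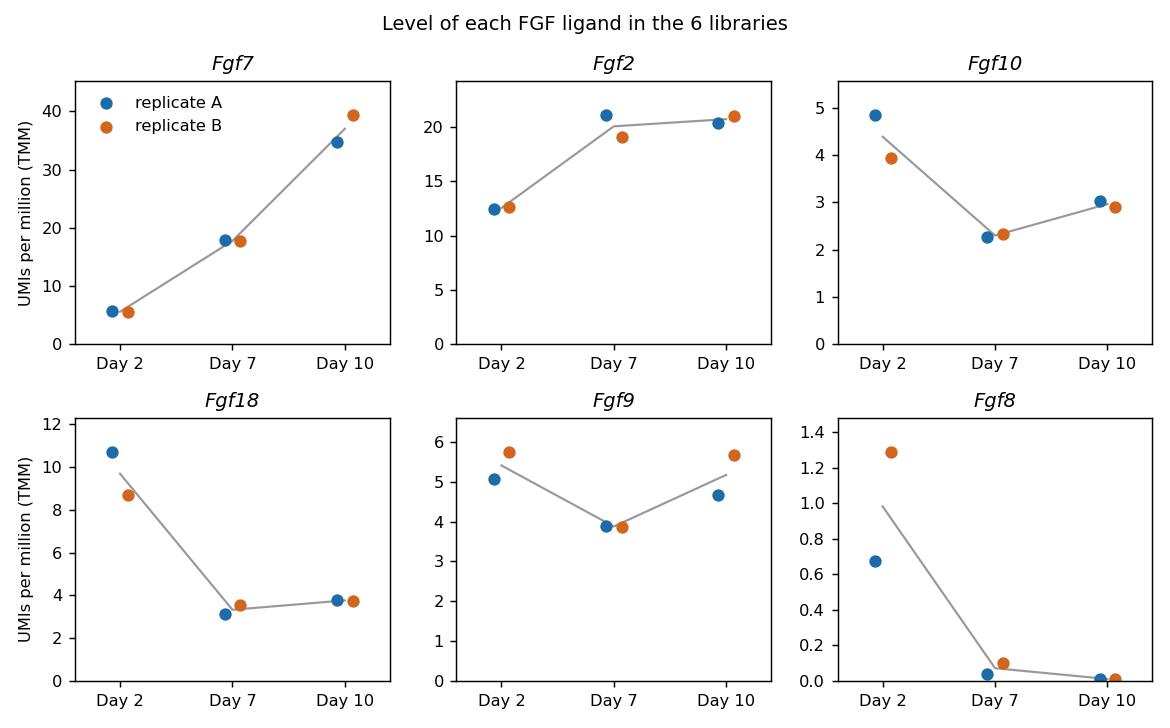
Level of each FGF ligand in every library (y axis, UMIs per 1000000 with TMM-scaled library totals, linear from 0 and with a scale of its own per gene; x axis, day of culture; points, replicates A and B; line, mean of the day). *Fgf7* climbs at each day, *Fgf8* drops from 0.675 and 1.29 to near 0, *Fgf18* and *Fgf10* are highest at Day 2, and *Fgf9* is lowest at Day 7.

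*Fgf7* rose at every step. It stood at 5.66 and 5.52 CPM in the Day 2 replicates, 17.8 and 17.7 at Day 7, then 34.7 and 39.3 at Day 10. Days did not overlap, and replicates of a day lay far closer to each other than to the next day. It rose 3.18-fold between Day 2 and Day 7 (log2 fold change 1.67, SE 0.069, adjusted p = 1.22e-07) and 2.08-fold between Day 7 and Day 10 (1.06, SE 0.065, adjusted p = 1.49e-05). From Day 2 to Day 10 it rose 6.62-fold (2.73, SE 0.070, adjusted p = 6.5e-09), the largest rise of the 6 in this fit.

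The number of cells with an *Fgf7* UMI rose too. Such cells were 8.26% (95% exact binomial interval 7.71 to 8.83) and 4.45% (4.14 to 4.77) of the Day 2 cells, 11.9% (11.4 to 12.5) and 11.98% (11.4 to 12.6) at Day 7, and 30.3% (29.4 to 31.2) and 30.8% (29.9 to 31.7) at Day 10. Intervals here cover counting error only. The Day 2 replicates differ in depth, and once each cell was thinned to 3000 UMIs their shares were 1.56% and 1.76%, against 4.32% and 4.10% at Day 7, then 8.87% and 9.93% at Day 10, leaving out 646, 6832, 4157, 2907, 822 and 1088 shallower cells in library order. Among cells of 20000 UMIs and over, 13.5% and 13.1% had an *Fgf7* UMI at Day 2, 23.0% and 23.4% at Day 7, then 39.7% and 42.6% at Day 10. The thinned shares keep the order of the days at 1 fixed depth, whereas the deep cells still differ in depth (median 30130 and 30340 UMIs at Day 2, 32120 and 32300 at Day 7, then 35110 and 34010 at Day 10). Cells with *Fgf7* also held more of it: 32.3% and 25.7% of them had 2 or more UMIs at Day 2, 42.8% and 45.6% at Day 7, then 51.9% and 54.4% at Day 10. These shares were not thinned. The median depth of these cells was 29030 and 25360 UMIs at Day 2, 26870 and 27900 at Day 7, then 31460 and 30400 at Day 10, and the part of depth was not tested.

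*Fgf10* moved otherwise. It stood at 4.84 and 3.93 CPM at Day 2, 2.26 and 2.34 at Day 7, then 3.02 and 2.91 at Day 10. Both Day 2 libraries lay above all later ones. It fell by 0.93 on the log2 scale between Day 2 and Day 7 (SE 0.11, adjusted p = 7.2e-05) to 0.523 of its level, and at Day 10 it was at 0.675 of its Day 2 level (log2 fold change -0.57, SE 0.11, adjusted p = 0.00118). The rise between Day 7 and Day 10 was 1.29-fold (0.37, SE 0.11, adjusted p = 0.0229), and this call was lost when any 1 of the 4 libraries of these days was left out (log2 fold change 0.34 to 0.40). Cells with an *Fgf10* UMI were 8.63% and 3.67% of those at Day 2, 2.57% and 2.88% at Day 7, then 5.52% and 5.09% at Day 10. Among cells of 20000 UMIs and over, the shares were 12.8% and 9.92%, 5.38% and 6.30%, and 8.11% and 8.21%. Thinned to 3000 UMIs per cell, the *Fgf10* shares were 1.53% and 1.39% at Day 2, 0.618% and 0.536% at Day 7, then 0.831% and 0.766% at Day 10, so both Day 2 libraries were highest there, although Day 2 replicate B lay under Day 10 before thinning.

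*Fgf7* and *Fgf10* were also counted within the same cells. Cells with a UMI of both numbered 82 and 52 in the Day 2 replicates, 139 and 149 at Day 7, then 336 and 288 at Day 10. Of the *Fgf10* cells, 10.1% and 8.60% also had *Fgf7* at Day 2, 40.2% and 41.9% at Day 7, then 58.6% and 56.9% at Day 10. Of the cells without *Fgf10*, 8.09% and 4.29% had *Fgf7* at Day 2, 11.2% and 11.1% at Day 7, then 28.7% and 29.4% at Day 10, so the shares lay closest in Day 2 replicate A. The *Fgf10* cells were deeper in each library (median 35400 and 34680 UMIs at Day 10, against 23480 and 21260 in the cells without), and the part of depth in this difference was not tested.

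*Fgf18* had its peak at Day 2. It stood at 10.7 and 8.68 CPM in the Day 2 replicates, 3.12 and 3.53 at Day 7, then 3.79 and 3.75 at Day 10. Both later days lay well under Day 2 and close to each other. It fell by 1.54 on the log2 scale between Day 2 and Day 7 (SE 0.11, adjusted p = 2.73e-06), to 0.343 of its level. The later change was 0.18 (SE 0.11, adjusted p = 0.206), not called although the replicates of Day 7 and Day 10 did not overlap. Against Day 2, Day 10 was at 0.389 of the level (log2 fold change -1.36, SE 0.11, adjusted p = 3.74e-06). Cells with an *Fgf18* UMI made up 12.4% and 5.87% of the Day 2 libraries, 3.24% and 3.83% of Day 7, and 5.43% and 4.69% of Day 10. In cells of 20000 UMIs and over the shares were 16.8% and 13.6%, 5.77% and 5.46%, and 8.25% and 7.41%. Thinned to 3000 UMIs they were 3.30% and 2.82%, 1.03% and 1.33%, and 0.994% and 0.946%, and Day 10 then lay under Day 7.

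*Fgf9* dipped at Day 7. It stood at 5.07 and 5.74 CPM at Day 2, 3.89 and 3.86 at Day 7, then 4.67 and 5.67 at Day 10. Day 7 lay under both other days, which overlapped each other. It fell by 0.48 on the log2 scale between Day 2 and Day 7 (SE 0.11, adjusted p = 0.00329) and rose by 0.41 between Day 7 and Day 10 (SE 0.11, adjusted p = 0.0111), the second call being lost without Day 10 replicate B (log2 fold change 0.28, adjusted p = 0.0696). Day 10 against Day 2 was not called (log2 fold change -0.06, SE 0.10, adjusted p = 0.584). Cells with an *Fgf9* UMI made up 6.37% and 3.71% of the Day 2 cells, 3.35% and 3.34% at Day 7, then 6.05% and 6.42% at Day 10, and in cells of 20000 UMIs and over 11.4% and 10.7%, 7.67% and 7.42%, and 8.53% and 9.99%. Thinned to 3000 UMIs, *Fgf9* was in 1.29% and 1.57%, 0.891% and 0.833%, and 1.24% and 1.45%.

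*Fgf2* rose early and then held. It stood at 12.5 and 12.6 CPM at Day 2, 21.1 and 19.1 at Day 7, then 20.4 and 21.1 at Day 10. Both Day 2 libraries lay under all later ones, and Day 7 and Day 10 overlapped. It rose 1.60-fold between Day 2 and Day 7 (log2 fold change 0.68, SE 0.061, adjusted p = 1.17e-05) and was 1.65-fold higher at Day 10 than at Day 2 (0.72, SE 0.060, adjusted p = 5.47e-06). Between Day 7 and Day 10 the change was 0.05 (SE 0.060, adjusted p = 0.536). Cells with an *Fgf2* UMI made up 20.01% and 10.9% of the Day 2 cells, 16.5% and 16.1% of Day 7, and 26.9% and 25.7% of Day 10. In cells of 20000 UMIs and over these shares were 31.8% and 32.6%, 34.4% and 32.1%, and 39.5% and 39.2%, so that among these cells Day 2 and Day 7 overlapped. Thinned to 3000 UMIs, the *Fgf2* shares were 3.62% and 3.89%, 4.94% and 4.39%, and 4.92% and 5.29%, with Day 2 under both later days. The annotation has *Fgf2os* and *Nudt6* on the opposite strand of the *Fgf2* locus (3: 37348346 to 37410108, GRCm38), and *Fgf7*, *Fgf9* and *Fgf10* also overlap genes of the opposite strand. How far the counting kept strands apart was not tested.

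**Figure D2:**
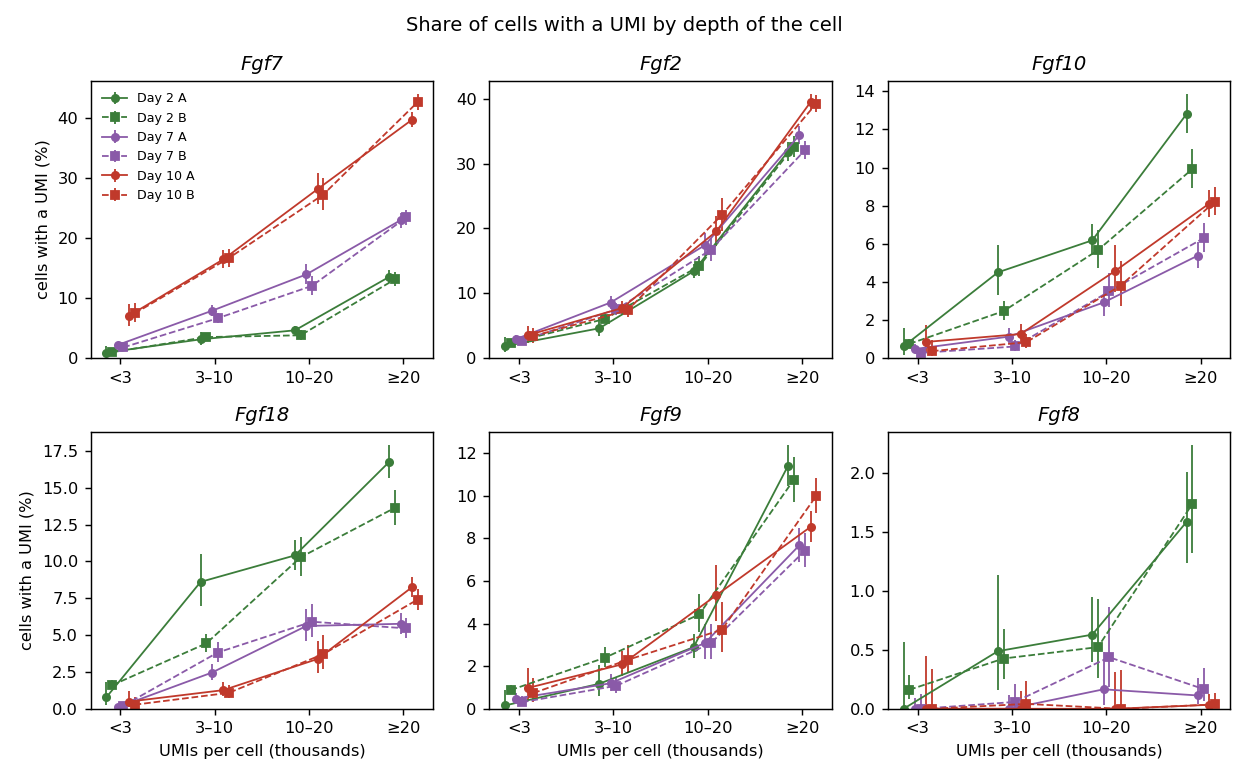
Share of cells with a UMI of each ligand (y axis, percent) by depth bin of the cell (x axis, UMIs per cell in units of 1000) in every library (lines colored by day, solid for replicate A and dashed for replicate B, with exact binomial 95% intervals). Shares mostly climb with depth, the days lie apart in every bin for *Fgf7*, and for *Fgf8* and *Fgf18* both Day 2 libraries lie above the later days from 3000 UMIs on.

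*Fgf8*, the ligand of the ridge, was seen mainly at Day 2 and was rare there. Its UMIs numbered 156 and 262 in the Day 2 replicates, 8 and 19 at Day 7, then 2 and 3 at Day 10, and they came from 95, 98, 8, 17, 2 and 3 cells. Every Day 2 library lay above every Day 7 library, and these above Day 10. The Day 2 level was 13.6 times that of Day 7 (counting interval 9.21 to 20.9) and 89.9 times that of Day 10 (38.2 to 278), from TMM-scaled library totals summed over both replicates. These intervals take each UMI as independent and are too narrow, since 113 UMIs of Day 2 replicate B came from 1 cell. With no filter on low counts, edgeR's fitted log2 fold change between Day 2 and Day 7 was -3.76 (SE 0.36, adjusted p = 2.36e-08), a value that depends on the prior count as the later counts are near 0. With the filter, which *Fgf8* passed through Day 2 alone, it was -3.77, and over the alternatives it ranged from -4.55 without Day 7 replicate B, which held 19 of the 27 UMIs of that day, to -3.24 without Day 7 replicate A or Day 2 replicate B. Between Day 7 and Day 10 the ratio was 6.61 (2.51 to 21.98), from 27 against 5 UMIs, and no call is drawn from so few. The fitted log2 fold change was -2.66 with no filter (SE 0.66, adjusted p = 0.00324), and in the fit with the filter it missed the threshold without Day 7 replicate B (-1.87), Day 10 replicate A (-2.34) or Day 10 replicate B (-3.025). Shares of cells with a UMI were 1.01% (0.814 to 1.23) and 0.595% (0.483 to 0.724) at Day 2, and 0.0193% (0.00233 to 0.0696) and 0.0302% (0.00622 to 0.0881) at Day 10.

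A single cell held 43.1% of the *Fgf8* of Day 2 replicate B. This cell had 113 of the 262 UMIs and 34879 UMIs in all, and 12 of the 15 genes of a list for apical ridge and ectoderm were seen in it, among them *Epcam* with 68 UMIs, *Wnt6* with 21, *Krt5* with 12, *Sp8* with 7 and *Trp63* with 6. *Epcam* is an epithelial adhesion molecule, *Trp63* a master factor of stratified epithelia, and *Sp8* a factor the ridge needs. It also held 4 UMIs of *Fgf4*, another ridge ligand, and none of *Prrx1* or *Prrx2*, factors of limb mesenchyme. In Day 2 replicate A, 1 cell with 7 *Fgf8* UMIs had 7 of these 15 genes and no *Prrx1* among its 9105 UMIs.

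The other *Fgf8* cells of Day 2 were unlike these. They numbered 94 and 97 in replicates A and B, held 149 UMIs in each library with at most 8 and 10 in a cell, and had 0 to 4 and 0 to 3 of the 15 genes. *Prrx1* was seen in 94.7% and 93.8% of them. By share of cells, *Fgf8* was most frequent in a contractile mesenchyme-like cluster led by *Pcp4*, *Myl9* and *Tagln*, which gave 45.5% and 22.1% of all *Fgf8* UMIs, or 47.7% and 38.9% without the 2 cells described above, from 16.6% and 14.8% of the UMIs of all genes. In this *Pcp4*-led cluster 3.64% and 3.63% of cells had a UMI (median depth 24749 and 26102 UMIs). Shares were 2.49% and 1.35% in a cluster led by *Msx1*, *Rprm* and *Zfp503*, and 0.994% and 2.02% in one led by histone genes. The histone-led cluster gave 18.1% and 27.5% of the *Fgf8* UMIs without the 2 cells. Shares were lower, at 0.368% and 0.152%, in the other contractile mesenchyme-like cluster. *Fgf8* was in 0.0870% of the chondrocyte-like cells of replicate A (17338 UMIs). In replicate B it was in 0 of the 871 (21052 UMIs), which allows a share of up to 0.344%. An unnamed cluster that holds the 113 UMIs gave 46.6% of the *Fgf8* of replicate B with that cell and 6.04% without it. *Epcam*, in turn, was seen in 14.7% and 13.3% of all *Fgf8* cells and in 3.63% and 1.71% of the other cells, which were shallower. Other genes of the list were mixed. *Perp* was seen in 8.42% and 1.02% of the *Fgf8* cells, against 2.35% and 1.60% of the others. *Krt15* was in 0 of the *Fgf8* cells, against 0.577% and 0.287% of the others, and *Wnt7a* also in 0, against 0.193% and 0.0732%. Cells with 5 or more of the 15 genes were few in every library (4, 4, 1, 1, 0 and 2), and 1 of the 4 at Day 2 held *Fgf8* in each replicate. Without the 1 cell, *Fgf8* in Day 2 replicate B was 0.837 CPM of library total in place of 1.47, against 0.759 in replicate A, and the fitted log2 fold change to Day 7 was -3.30. That cell was singled out after its values were seen.

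**Figure D3:**
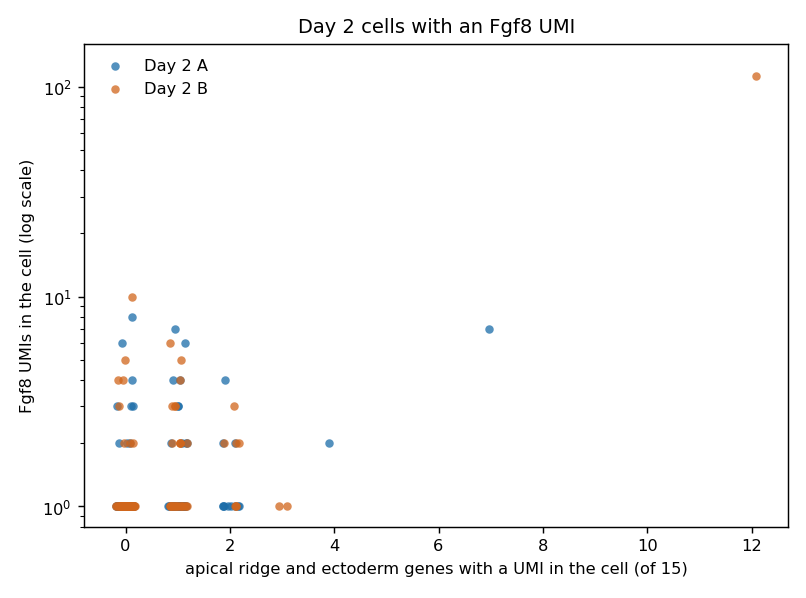
Every Day 2 cell with an *Fgf8* UMI (points, colored by replicate and spread slightly sideways), by the number of apical ridge and ectoderm genes seen in it (x axis, of 15) and its *Fgf8* UMIs (y axis, log scale). All but 2 cells lie at 10 *Fgf8* UMIs or fewer and 4 genes or fewer, and 1 cell of replicate B stands apart at 113 UMIs and 12 genes.

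**Figure D4:**
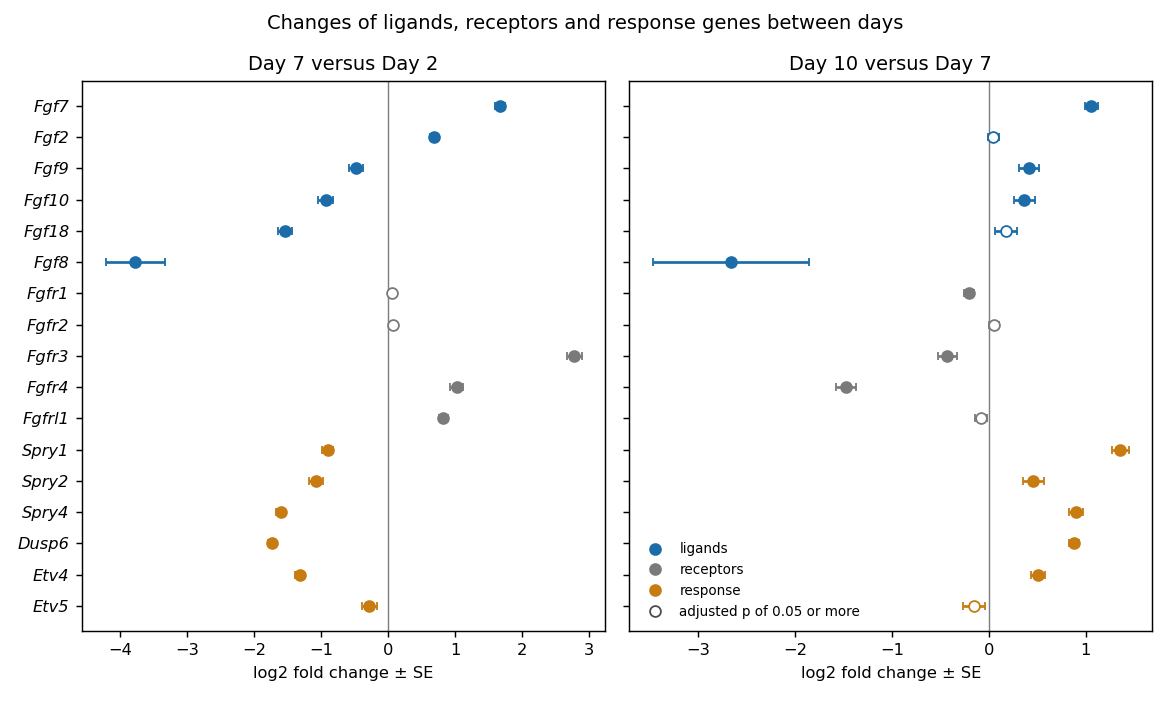
Log2 fold change with 1 SE (x axis) of the 6 ligands, 5 receptors and 6 response genes (y axis) between Day 2 and Day 7 (left) and between Day 7 and Day 10 (right), from edgeR on library sums. Filled points had an adjusted p under 0.05, and *Fgf7* lies above 0 in both panels, while the 6 response genes lie below 0 in the left one. *Fgf8* is filled in both panels but passed the filter through Day 2 alone, and no call is drawn from it between Day 7 and Day 10.

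The cells were also clustered within each day, with all genes of the FGF lists left out of the clustering, to describe where the ligands were found. Levels by cluster are descriptions without a test, in CPM of the UMIs of the cluster in each replicate, and clusters were named only where markers allowed. Chondrocyte-like clusters were low in *Fgf7*, *Fgf9*, *Fgf10* and *Fgf18* at each day, the exception being the smallest of the 3 at Day 10, which stood amid the other clusters. At Day 2 the chondrocyte-like cluster held 1.003 and 1.51 CPM of *Fgf10* in the 2 replicates and 1.92 and 0.858 of *Fgf18*. At Day 10 the values in its largest counterpart were 4.11 and 4.76 CPM for *Fgf7* and 0.407 and 0.510 for *Fgf9*, with shares of cells that overlapped those of macrophage-like cells. *Fgf2* was low in the same Day 10 cluster, at 5.80 and 6.34 CPM, but at Day 2 its chondrocyte-like level of 11.1 and 13.01 CPM lay amid the other clusters.

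**Figure D5:**
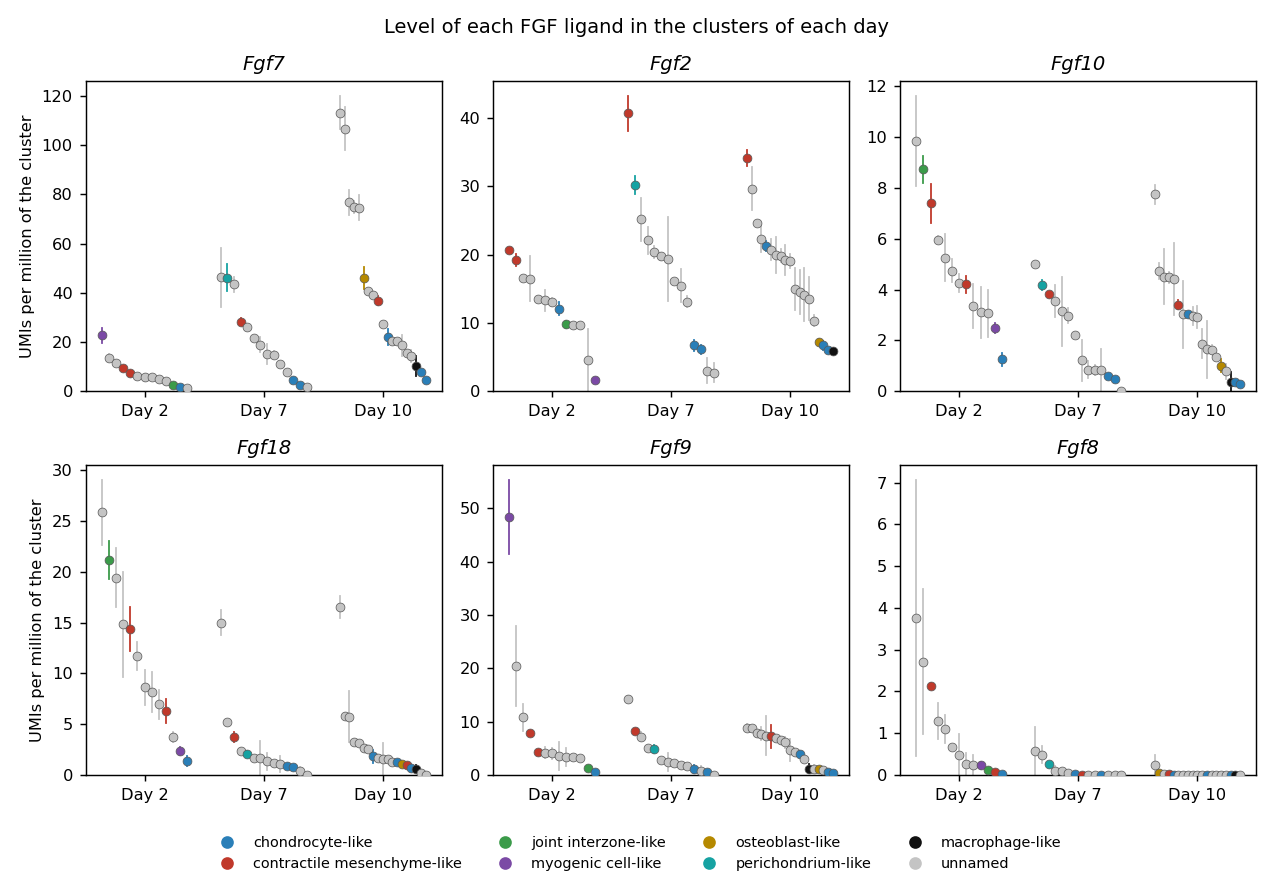
Level of each ligand in every cluster of 100 or more cells (y axis, UMIs per 1000000 of the cluster, linear from 0; points, mean of both replicates; bars, the values of the replicates), with the clusters of each day in falling order (x axis) and colored by name. *Fgf9* stands out in the myogenic cell-like cluster of Day 2, *Fgf7* in several unnamed clusters of Day 10, and the chondrocyte-like cluster of Day 2 is lowest or next to lowest for the ligands other than *Fgf2*.

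*Fgf9* at Day 2 was highest in the myogenic cell-like cluster, at 41.4 and 55.4 CPM, and 47.0% and 62.2% of its cells had a UMI. This cluster gave 34.04% and 31.2% of all *Fgf9* UMIs from 4.69% and 3.69% of the UMIs of all genes. *Fgf7* was also highest there at Day 2, at 25.7 and 19.6 CPM, while at 2 times the clustering resolution its highest cluster mean of Day 2 was 50.9 CPM in place of 22.7. Muscle markers faded in the cultures, the 10 myogenic markers summing to 635 and 495 CPM of library total at Day 2, 94.6 and 45.8 at Day 7, then 18.9 and 27.9 at Day 10. Outside the clusters led by muscle genes, levels were taken per 1000000 UMIs of the remaining cells, with no TMM factor. There *Fgf9* was 3.91 and 4.599 CPM at Day 2, 3.61 and 3.57 at Day 7, then 4.40 and 5.37 at Day 10. The Day 7 values lay close under those of Day 2. The part of muscle cells in the changes of *Fgf9* was not tested. *Fgf7* outside these clusters was 5.401 and 5.69, 16.5 and 16.4, and 32.7 and 37.6 CPM, with the same order of days as in the whole libraries.

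*Fgf18* and *Fgf10* shared their leading clusters at Day 2 and parted later. At Day 2 both were highest in a cluster led by *Msx1*, *Rprm* and *Zfp503*, at 22.7 and 29.1 CPM of *Fgf18* and 11.6 and 8.08 of *Fgf10*. The joint interzone-like cluster, led by *Pthlh* and with *Gdf5* among its leading genes, came next for both, at 23.1 and 19.3 CPM of *Fgf18* and 8.19 and 9.28 of *Fgf10*. Its replicates lay within the range of the first cluster for *Fgf10*, and for *Fgf18* the ranges overlapped. At Day 7 *Fgf18* stood at 13.8 and 16.2 CPM in a cluster led by *Gas1*, *Fabp4* and *Angptl1*, and at 5.12 and 5.32 in the next. At Day 10 it stood at 15.4 and 17.7 CPM in a cluster led by *Ptn*, *Ccn5* and *Mfap4*, with *Scx*, a tendon factor, among its leading genes. This cluster gave 46.7% and 48.3% of all *Fgf18* UMIs from 10.8% and 9.77% of the UMIs of all genes. *Fgf10* was highest at Day 10 in another cluster, led by *Nrgn* and the tendon gene *Tnmd*, at 8.13 and 7.37 CPM, where *Fgf7* stood at 71.7 and 81.8.

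*Fgf7* at Day 10 was highest in 2 unnamed clusters. The first, led by *Dlk1*, *Stmn2* and *Crabp1*, held 106 and 120 CPM, *Fgf7* being seen in 81.9% and 85.9% of its cells, and the other, led by *Gpha2* and *Igf1*, held 115 and 98.0 CPM. These levels overlapped. *Fgf2* was highest in the contractile mesenchyme-like clusters of each day, which express smooth muscle actin, at 20.6 and 20.7 CPM at Day 2, 43.2 and 38.2 at Day 7, then 33.0 and 35.3 at Day 10. At Day 7 this cluster gave 49.8% and 49.9% of *Fgf2* UMIs and 50.6% and 53.5% of *Fgf9* UMIs from 22.8% and 23.1% of the UMIs of all genes.

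The share of chondrocyte-like cells also changed between days. Their clusters held 10.7% and 11.1% of all UMIs at Day 2, 39.95% and 37.9% at Day 7, then 23.5% and 21.7% at Day 10, and the 15 chondrocyte markers, none at 0 in any library, summed to 2362 and 2579 CPM, 19900 and 18550, and 12030 and 11080, all of library total. Outside these clusters, levels were taken per 1000000 UMIs of the remaining cells, with no TMM factor. There *Fgf10* was 5.97 and 4.87 CPM at Day 2, 3.27 and 3.14 at Day 7, then 3.51 and 3.36 at Day 10. *Fgf9* was 6.32 and 7.31, 5.78 and 5.37, and 5.51 and 6.64 CPM on these days. *Fgf2* was 14.4 and 14.6, 28.4 and 25.1, and 22.8 and 23.4 CPM, and *Fgf7* was 6.92 and 6.85, 26.0 and 24.8, and 40.9 and 45.8 CPM. Outside the chondrocyte-like clusters, *Fgf9* overlapped between Day 7 and Day 10 and *Fgf2* was lower at Day 10. The part of chondrocyte-like cells in the changes between days was not tested.

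Shares were read against cells taken to lack the genes, which was not tested. The macrophage-like cluster of Day 10, with 118 and 164 cells, was taken for this. It had a median of 21232 and 21872 UMIs per cell, near the 24197 and 22128 of its libraries. It had an *Fgf7* UMI in 8.47% and 14.0% of cells, *Fgf2* in 11.9% and 10.4%, *Fgf9* in 0.848% and 2.44%, *Fgf18* in 1.69% and 0.610%, and *Fgf10* in 1.83% of the cells of replicate B. In replicate A *Fgf10* was in 0 of 118 cells, which allows a share of up to 2.54%. All these shares lay under those of their libraries. The 9.94% to 10.5% of cells with *Fgf7* in the largest chondrocyte-like cluster of Day 10 (median depth 36952 and 33647 UMIs) overlapped the macrophage-like shares, as did the 1.05% and 1.19% with *Fgf9* and the 1.57% and 1.09% with *Fgf10*, and none of these is read as expression. The level of free RNA was not measured, and doublets were not removed.

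Across the 46 clusters of 100 or more cells of all 3 days, the genes whose levels were most like a ligand's were listed as a description. Pearson's r was taken of log2(CPM + 1), over clusters that share libraries and differ in depth and day, so changes between days enter it. The search covered 10332 genes with at least 10 CPM in at least 3 clusters. For *Fgf18* these were *Zcchc18* (r = 0.89), *6330403K07Rik* (0.85) and *Gas2* (0.84), for *Fgf7* *Capn1* (0.85), *Parp3* (0.83) and *Cyp1b1* (0.80), and for *Fgf2* *Tgfb3* and *Sema3f* (0.81 to 0.82). For *Fgf9* they were *Nexn*, *Pgf* and *Pkia* (0.75 to 0.79), and for *Fgf10* *Cpne1*, *Palm* and *Tbx18* (0.78 to 0.80). Between ligands other than *Fgf8*, r was 0.60 for *Fgf10* and *Fgf18*, 0.53 for *Fgf2* and *Fgf10*, 0.09 for *Fgf7* and *Fgf10*, and -0.32 for *Fgf7* and *Fgf18*.

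Of the 6 ligands described here, among those with 100 or more UMIs in every library, *Fgf7* rose and *Fgf18* fell the most between Day 2 and Day 10, and the 250 bases before their RefSeq starts (GRCm38.p6) are shown for that reason. Capitals mark a CCAAT box (CCAAT) or GC box (GGGCGG) on either strand, and the searched TATA box (TATAAA) was in neither.

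Fgf7: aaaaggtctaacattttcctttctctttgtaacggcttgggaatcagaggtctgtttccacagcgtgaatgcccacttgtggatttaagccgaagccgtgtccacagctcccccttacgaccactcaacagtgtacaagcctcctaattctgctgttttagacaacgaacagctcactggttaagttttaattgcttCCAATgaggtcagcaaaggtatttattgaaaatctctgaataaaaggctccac

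Fgf18: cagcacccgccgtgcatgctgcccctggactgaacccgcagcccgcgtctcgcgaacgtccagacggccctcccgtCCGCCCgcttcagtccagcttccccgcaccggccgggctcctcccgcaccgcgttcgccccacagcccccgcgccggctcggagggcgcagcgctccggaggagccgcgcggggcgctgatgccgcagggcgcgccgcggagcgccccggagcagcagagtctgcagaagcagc

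The *Fgf7* window, chr2:126034408-126034657 on the plus strand, had a GC content of 43.6% and 6 CpG sites, and its CCAAT box began 53 bases before the start. The *Fgf18* window, chr11:33147401-33147650 on the minus strand, had a GC content of 77.2% and 37 CpG sites, with a GC box on its opposite strand. Over the windows of 32851 genes the median GC content was 52.4% with 6 CpG sites, and 97.4% had a lower GC content than *Fgf18*. CCAAT was found in 33.8% of these windows, GGGCGG in 32.7% and TATAAA in 12.4%. These matches describe the letters and are not sites of binding.

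The share of the other FGF genes that fell from Day 2 to Day 7 was near that of all genes, and more fell than rose in both later comparisons. *Fgf11*, *Fgf12* and *Fgf13*, of a group that acts inside cells, were among those that fell in both. Of 16, 13 were tested, and 2 of these, *Fgf3* and *Fgf15*, passed the filter only through Day 2 and are left out of the counts. Of the other 11, 2 rose and 4 fell from Day 2 to Day 7, 1 rose and 6 fell from Day 7 to Day 10, and 1 rose and 7 fell from Day 2 to Day 10, beside 35.7% higher and 34.6% lower, 26.3% and 25.9%, and 39% and 38.2% of all genes. *Fgf21*, a metabolic hormone in the liver, was the one that rose over the whole time, from 0.826 ± 0.293 CPM at Day 2 (SD, n = 2) to 5.80 ± 0.452 at Day 7 and 3.54 ± 0.486 at Day 10. *Fgf13*, which acts inside cells, fell from 8.48 ± 0.967 to 3.45 ± 0.053 and 2.81 ± 0.143 CPM. Its relative *Fgf12* was not called to Day 7 and then fell, at 3.19 ± 0.00778, 2.79 ± 0.122 and 0.972 ± 0.115 CPM. *Fgf11*, of the same group, stood at 0.880 ± 0.0345, 1.82 ± 0.491 and 0.273 ± 0.0339 CPM. *Fgf16*, a relative of *Fgf9*, stood at 0.814 ± 0.073, 0.168 ± 0.0357 and 0.165 ± 0.0099 CPM. *Fgf5* fell and rose again, at 1.74 ± 0.134, 0.935 ± 0.0666 and 1.5 ± 0.281 CPM, and *Fgf22* stood at 0.661 ± 0.0379, 0.398 ± 0.0376 and 0.388 ± 0.0752. *Fgf1* was called in no comparison, at 0.339 ± 0.0143, 0.244 ± 0.00509 and 0.360 ± 0.0509 CPM. *Fgf3* had 93 and 103 UMIs at Day 2, 3 and 2 at Day 7, then 1 and 2 at Day 10. *Fgf4*, a ligand of the ridge like *Fgf8*, had 4 UMIs in each Day 2 library, those of replicate B all in the 1 cell with 113 *Fgf8* UMIs, and at most 1 in any later one.

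Of the genes of the FGF response, most fell between Day 2 and Day 7 and most rose between Day 7 and Day 10. Of 10 feedback and response genes, 9 fell and none rose in the first step, with a median log2 fold change of -0.95, beside 34.6% of all genes lower and 35.7% higher. In the second, 6 rose and 1 fell, with a median of 0.49, beside 26.3% higher and 25.9% lower. From Day 2 to Day 10, 2 rose and 7 fell, with a median of -0.66, beside 39% higher and 38.2% lower. *Dusp6*, the phosphatase of this feedback, stood at 47.1 ± 1.40 CPM at Day 2 (SD, n = 2), 14.1 ± 0.474 at Day 7 and 26.0 ± 0.7 at Day 10. The inhibitors *Spry2* and *Spry4* likewise stood below Day 2 at Day 10, at 20.4 ± 3.78, 9.63 ± 0.197 and 13.2 ± 0.552 CPM and at 14.5 ± 0.453, 4.78 ± 0.129 and 8.94 ± 0.66. *Spry1* went the other way by Day 10, at 14.3 ± 1.65, 7.61 ± 0.354 and 19.5 ± 1.31 CPM. The transcription factor *Etv4* stood at 11.4 ± 0.686, 4.58 ± 0.0233 and 6.52 ± 0.218 CPM, and *Etv5* at 12.8 ± 2.32, 10.5 ± 0.651 and 9.44 ± 0.383. Day 7 was the low point of these but for *Etv5*.

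Of the 5 receptors, 3 rose and none fell from Day 2 to Day 7, none rose and 3 fell from Day 7 to Day 10, and 3 rose and 2 fell from Day 2 to Day 10, beside 35.7% higher and 34.6% lower, 26.3% and 25.9%, and 39% and 38.2% of all genes. *Fgfr3*, the receptor of growth cartilage, rose from 16.7 ± 2.43 to 114 ± 8.98 CPM by Day 7 and stood at 84.9 ± 7.41 at Day 10. The summed chondrocyte markers given above, from 2362 and 2579 CPM of library total to 19900 and 18550 and then 12030 and 11080, moved with it. *Fgfr3* was a leading gene of a Day 7 chondrocyte-like cluster, and the part of these cells in its rise was not tested. *Fgfr1* stood at 96.4 ± 0.247, 101 ± 2.64 and 87.3 ± 3.08 CPM, and *Fgfr2* at 71.5 ± 0.453, 75.4 ± 2.02 and 78.2 ± 3.15. *Fgfr4* peaked at Day 7, at 4.27 ± 0.542, 8.66 ± 0.00424 and 3.12 ± 0.319 CPM. *Fgfrl1*, a receptor without a kinase domain, rose from 60.5 ± 1.78 to 107 ± 0.566 and stood at 101 ± 8.68 CPM.

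Genes for FGF binding and presentation moved in both directions. Of 19 tested, 7 rose and 8 fell from Day 2 to Day 7, beside 35.7% and 34.6% of all genes. From Day 7 to Day 10, 6 rose and 6 fell, beside 26.3% and 25.9%, and from Day 2 to Day 10, 6 rose and 10 fell, beside 39% and 38.2%. Of 12 genes of the limb bud circuit around *Fgf8* and *Fgf10*, with *Sall4* left out as it passed the filter only through Day 2, 10 fell and 2 rose to Day 7. From Day 7 to Day 10, 7 fell and 3 rose, and from Day 2 to Day 10, 10 fell and 1 rose, beside the same shares. *Grem1*, a BMP antagonist that ties mesenchyme to ridge, was the one that rose from Day 2 to Day 10, and *Msx1*, *Lhx2* and *Lhx9* were among those that fell. Of 11 genes of the apical ridge and ectoderm list, with *Krt14* and *Wnt7a* left out as each passed through 1 day, 3 rose and 5 fell to Day 7. From Day 7 to Day 10, 3 rose and 2 fell, and from Day 2 to Day 10, 3 rose and 5 fell, beside the same shares. *Epcam* fell from 649 and 467 UMIs at Day 2 to 117 and 84 at Day 7, then 55 and 72 at Day 10. The epithelial cadherin *Cdh1* had 11, 9, 46, 34, 66 and 81 UMIs in library order, and *Trp63* had 334, 278, 472, 444, 670 and 777. *Krt5* had 294, 72, 348, 126, 16 and 6 UMIs and *Krt14* 9, 70, 789, 67, 1 and 2, so the Day 7 level of *Krt14* was carried by replicate A. *Sp8* had 3, 11, 4, 0, 0 and 0 UMIs.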

How the data were processed

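Cells of 2 independent Day 2, Day 7 and Day 10 DID cultures each were profiled with the 10x Genomics 3′ kit. The authors deposited, per library, a matrix of UMI counts per gene and cell that is not normalized. The submitters' processing notes name Cell Ranger 6.1.2, STAR, GRCm38 (mm10) and Seurat 4.1.0. The setting for strand is not given in the sources used here.

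Cells were kept by the study's limits (at least 800 or 1000 UMIs, 200 to 7500 genes, and ceilings on mitochondrial and ribosomal shares), which left the cell numbers that the study's methods state for every library. Library groups and replicate letters came from the labels, and columns of other samples numbered 0. Counts were summed per library and tested with edgeR 4.0.16 (R 4.3.3, limma 3.58.1): filterByExpr, TMM factors (0.927 to 1.14), glmQLFit and glmQLFTest over all 6 libraries with the day as the only term, and Benjamini-Hochberg adjustment over 18990 genes. The common biological coefficient of variation was 0.0689 with 3 residual degrees of freedom. The SE of a log2 fold change was back-calculated, as its size divided by the square root of the test's F statistic. Replicates are separate cultures, and their counts differed by more than sampling noise at every day. The fit was first tested on simulated data. Deviations of same-lettered libraries from their day means were not positively correlated over genes (-0.03, -0.10 and -0.25), and the letters were not used as pairs. With 2 libraries per day this cannot exclude a shared origin.

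Shares of cells carry exact binomial 95% intervals, which cover counting error only, as do the intervals of count ratios. The latter take each UMI as independent. Thinning to 1000 or 3000 UMIs used the hypergeometric expectation. Cells of each day were clustered with Seurat 5.3.0 (SCTransform, anchor integration of both replicates, 35 dimensions, resolution 0.5 at Day 2 and Day 7 and 0.7 at Day 10), with the FGF lists left out of the features. A cluster was named where at least 3 markers of a type stood 2-fold above the mean of the other clusters, at least 2 of them were among its 10 leading genes with no type having more, and its cells were not shallow, a rule set after the leading genes were seen, and the clusters led by muscle genes were picked from their leading genes. Clusters were rebuilt here and may differ from the study's. Promoter windows are RefSeq's, matched by symbol for 5 of the 6 ligands.

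All 6 ligands are named. Of the other lists, values are given for receptors, for the targets *Spry1*, *Spry2*, *Spry4*, *Dusp6*, *Etv4* and *Etv5*, for other ligands with at least 50 UMIs in a library, and for 6 ectoderm markers, and the 3 genes most like each ligand are named, except 1 for *Fgf2* that is not reported here. *Fgf4*, *Grem1*, *Msx1* and other genes named outside this rule were picked with their values in view. The ligands, lists and tests were chosen with earlier results of these data known. Alternatives were DESeq2 1.42.0, its size factors, no filter, a replicate block, each library left out, all barcodes, cells of at least 3000 UMIs, 2 times the clustering resolution, clustering without integration and, added after seeing the data, the removal of 1 cell.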

Additional observations from a re-analysis of the deposited data

How the results depend on the processing

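The 6 ligands gave 18 fold changes between days, and these were computed under 234 alternatives in all, of which 221 kept the direction and the side of the threshold, 8 lost a call and 5 changed sign. All 13 losses and changes of sign were in the values named here. These tallies include the fold changes of *Fgf8*, which passed the filter on low counts through Day 2 alone. The calls of *Fgf2*, *Fgf7*, *Fgf9*, *Fgf10* and *Fgf18* between Day 2 and Day 7 held in every alternative run, as did all those of *Fgf7* and the Day 10 against Day 2 calls of *Fgf2*, *Fgf10* and *Fgf18*. With all barcodes of the matrices, the log2 fold change of *Fgf2* between Day 7 and Day 10 was -0.0405 and that of *Fgf9* between Day 2 and Day 10 was 0.0467, both uncalled in either form. When each library was left out in turn, *Fgf2* between Day 7 and Day 10 ranged from -0.0203 to 0.12, *Fgf8* from -3.19 to -1.87 (and from -4.55 to -3.24 between Day 2 and Day 7), *Fgf9* from 0.28 to 0.55 and *Fgf10* from 0.34 to 0.40, and *Fgf9* between Day 2 and Day 10 from -0.19 to 0.0807. The fold changes of the other named genes lost 39 calls and gained 12 in 975 alternatives, 31 and 4 of them on leaving out a library, and 8 changed sign. Leaving out libraries changed the sign of *Krt5* between Day 2 and Day 7 (-0.26 to 1.80), of *Fgf22* (-0.24 to 0.15), *Fgf16* (-0.23 to 0.21) and *Fgfrl1* (-0.17 to 0.0101) between Day 7 and Day 10, and of *Fgf1* between Day 2 and Day 10 (-0.0517 to 0.24), none of them called. A lone library of a day was assumed to vary like the others. The cause was not tested.

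With the replicate letter as a block, *Fgf7* changed by 1.67, 1.06 and 2.73 on the log2 scale between Day 2 and Day 7, Day 7 and Day 10, and Day 2 and Day 10. The block moved no fold change of the 6 ligands across the threshold (18 of 18). These include *Fgf8* between Day 7 and Day 10, from which no call is drawn. Counts of all genes called stayed within 1.5 times in 117 of 117 alternatives. The highest cluster mean of a ligand moved in 17 of 36 cases under 2 times the clustering resolution or without integration of the replicates. At 2 times the resolution that of *Fgf7* at Day 2 was 50.9 CPM in place of 22.7 and that of *Fgf8* 7.18 in place of 3.76. Without integration it was 8.90 for *Fgf8* at Day 2, 8.01 in place of 5.01 for *Fgf10* at Day 7, and 0.132 in place of 0.244 for *Fgf8* at Day 10. Shares of cells with a UMI moved with thinning in 71 of 72 cases, since each cell then holds fewer UMIs. By library total alone, the level of a ligand in a library moved in 18 of 36 cases.

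There were 2 cultures per day and 3 residual degrees of freedom. *Fgf8* after Day 2 rests on 8 and 17 cells at Day 7 and on 2 and 3 at Day 10, and the level of free RNA was not measured.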
